A study of Mus musculus with 14 samples.

Results

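The H3K9 demethylases are enzymes that take methyl groups off lysine 9 of histone H3, and 10 genes were listed by name for description here: Kdm3a, Kdm3b, Jmjd1c, Kdm4a, Kdm4b, Kdm4c, Kdm4d, Kdm1a, Kdm1b and Phf8. All 10 were found among the 20238 gene symbols that the deposited transcripts could be matched to. They have 15 RefSeq transcript entries among the 25650 in each table, and 13 of these held at least 1 read in at least 1 embryo. The rule names the genes and sets no threshold on measured values, but earlier results of these data were known when it was written.

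The data are RNA-seq libraries of 14 mouse embryos, each made from 1 embryo that had reached the two-cell stage. All embryos, controls included, were made by somatic cell nuclear transfer (SCNT), in which the nucleus of a donor cell is placed in an oocyte whose own chromosomes were removed. The oocytes and the strain in the labels are B6D2F1, and all embryos were activated and cultured in medium with deionized bovine serum albumin. Trichostatin A (TSA), an inhibitor of histone deacetylases, was given at 50 nM, and vitamin C (VC) at 10 µg/ml, with times counted in hours from the start of activation. The groups were control (3 embryos), VC(0-8h) (1 embryo), VC(8-15h) (2 embryos), TSA(0-8h) (3 embryos), TSA(0-8h)+VC(0-8h) (2 embryos) and TSA(0-8h)+VC(8-15h) (3 embryos). By the labels the embryos were taken 28 h after the transfer of the nucleus. Embryos are named below by group and by the number in their label.

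Most of these enzymes carry a JmjC domain. A JmjC enzyme holds an iron ion with a histidine and an acidic residue, uses 2-oxoglutarate and oxygen to oxidize the methyl group, and is helped by vitamin C, which keeps the iron in its reduced form. Kdm1a and Kdm1b are different: they are flavin-dependent amine oxidases that need neither iron nor vitamin C. H3K9 trimethylation marks heterochromatin inherited from the donor nucleus and is known as a barrier to genome activation in cloned embryos, and supply of Kdm4 enzymes is known to help such embryos.

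The coding bases around the iron-holding pair are shown for 6 of the JmjC genes, since this is the part of the enzyme that vitamin C acts on. Capitals mark the codon of the histidine and the codon of the acidic residue, and all 6 stretches are 78 bases read 5′ to 3′ on the strand of the gene from GENCODE transcripts on mm9.
Kdm4a: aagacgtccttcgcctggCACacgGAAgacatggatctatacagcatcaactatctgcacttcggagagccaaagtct
Kdm4b: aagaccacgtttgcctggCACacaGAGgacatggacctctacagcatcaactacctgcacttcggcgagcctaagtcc
Kdm4c: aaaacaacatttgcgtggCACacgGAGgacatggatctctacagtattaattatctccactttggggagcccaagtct
Kdm4d: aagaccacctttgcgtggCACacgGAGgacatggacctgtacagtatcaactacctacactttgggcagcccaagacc
Kdm3a: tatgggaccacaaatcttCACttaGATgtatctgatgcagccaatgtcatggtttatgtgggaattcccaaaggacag
Phf8: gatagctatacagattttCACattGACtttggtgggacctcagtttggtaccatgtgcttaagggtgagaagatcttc

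The Kdm4 stretches lie at chr4:117840992-117841069 on the minus strand (Kdm4a), chr17:56495400-56495477 on the plus strand (Kdm4b), chr4:73944459-73944536 on the plus strand (Kdm4c) and chr9:14268381-14268458 on the minus strand (Kdm4d), each inside 1 coding exon. The Kdm3a stretch lies in 1 coding exon at chr6:71542083-71542160 on the minus strand, and the Phf8 stretch spans 2 exons between chrX:147988801-147990530 on the plus strand. The 4 Kdm4 stretches share 57 of 78 bases with each other. By pairs they are equal at 62 to 67 bases, whereas Kdm3a and Phf8 are equal to each other at 27. The acidic codon is a glutamate codon in the Kdm4 genes and an aspartate codon in Kdm3a and Phf8. The other genes lie at chr10:66558873-66719074 (Jmjd1c, plus strand), chr4:136106455-136158638 (Kdm1a, minus strand) and chr13:47138868-47179982 (Kdm1b, plus strand), and Kdm3b lies on chromosome 18.

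Levels are RPKM, the reads on the exons of an entry scaled to the length of the entry and to the reads counted in that embryo. The reads counted ranged from 3021540 to 13589389 per embryo. A floor of 3 reads on an entry of 1 kb corresponds to 0.221 to 0.993 RPKM, depending on the depth of the library. These floors cover counting error only, since PCR reads without molecular identifiers are not independent molecules. A library holds both cells of an embryo, so fewer expressing cells and less RNA per cell cannot be told apart. The column headers of the deposited tables carry 1 of 3 sequencing identifiers, shared by 5, 6 and 3 embryos and called pools below, and the labels do not say what these stand for. Of 10 oocyte markers, 3 to 8 reached 1 RPKM per embryo. Bmp15, an oocyte growth factor, was the only 1 to do so in all 14 embryos, at 91.3 RPKM or more, whereas Zar1 did so in 2, Ooep in 3 and Zp2 in 7. The oocyte markers summed to 277 to 1132 RPKM in the controls, 775 to 962 RPKM in the TSA(0-8h) embryos and 374 to 568 RPKM in the TSA(0-8h)+VC(8-15h) embryos. Of the 8 two-cell markers, 1 to 8 reached 1 RPKM per embryo, with summed levels of 55.9, 6.58 and 375 RPKM in the control embryos, 184 to 633 RPKM in the TSA(0-8h) embryos and 403 to 462 RPKM in the TSA(0-8h)+VC(8-15h) embryos. The 10 markers of cumulus cells, which were the donor cells, summed to at most 1.84 RPKM, and Fshr and Inhba were at 0 in every library.

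Only part of the set was detected in each embryo, and genes not detected may still have been expressed. Between 3 and 8 of the 10 genes reached 1 RPKM in an embryo, taking all reads of a gene over the summed length of its entries. TSA(0-8h)+VC(0-8h) embryo 2 held the most, with 8 genes, and TSA(0-8h) embryos 2 and 3 and VC(8-15h) embryo 2 the fewest, with 3. Kdm3a passed 1 RPKM in 14 of 14 embryos, Kdm4a and Phf8 in 13, Kdm3b in 8, Kdm1b in 7, Kdm4c and Kdm1a in 5, Jmjd1c in 4, Kdm4b in 3 and Kdm4d in 1.
The number of members detected moved with the number of all entries at 1 RPKM or more, which ranged from 3322 to 6728 per embryo. Over the 14 embryos Pearson's r was 0.89 and Spearman's rho 0.91, a description only, since both counts come from the same libraries and share their depth and complexity. Of the single genes, Kdm4a followed that number most closely (r = 0.73, rho = 0.72) and Jmjd1c least (0.05 and 0.14). The TSA(0-8h) embryos held 3556 to 4249 such entries, the controls 3819 to 5439 and the TSA(0-8h)+VC(8-15h) embryos 5489 to 5720. The part of library complexity and of the oocyte and two-cell marker levels in the differences given below was not tested.

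**Figure D1:**
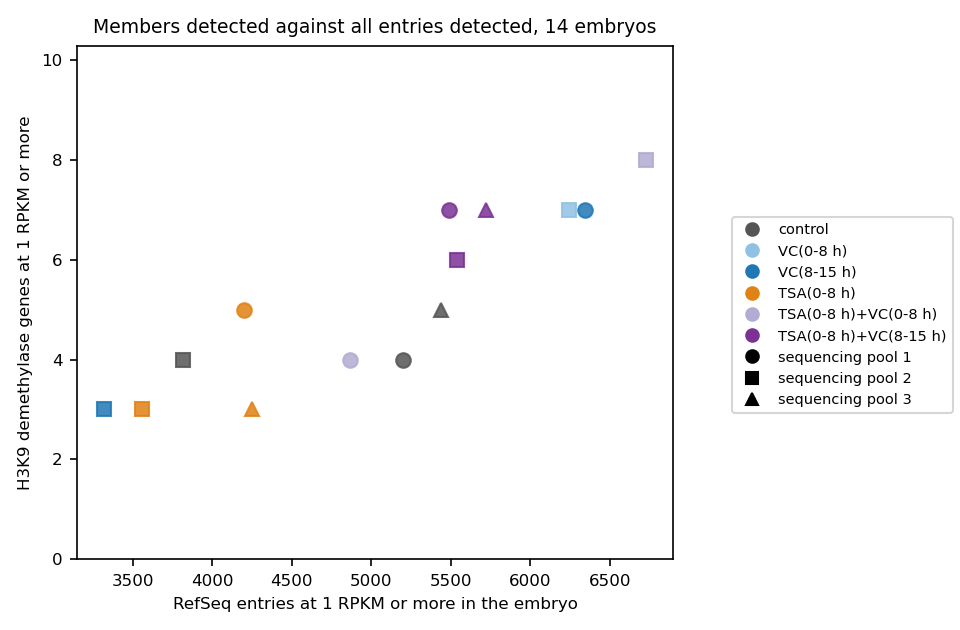
The x axis is the number of RefSeq entries at 1 RPKM or more in an embryo and the y axis is the number of the 10 H3K9 demethylase genes at 1 RPKM or more; each point is 1 of 14 embryos, coloured by treatment, with its symbol giving the sequencing pool. Embryos with 3322 to 4249 entries held 3 to 5 members and the 3 embryos with 6244 to 6728 entries held 7 or 8.

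Kdm3a, Kdm3b and Jmjd1c form a subfamily of JmjC enzymes known to remove mono- and dimethylation of H3K9. Kdm3a was the member found in every embryo. Its entry NM_173001 was at 50.8, 113 and 59.3 RPKM in control embryos 1 to 3, at 1.43, 27.6 and 9.69 RPKM in TSA(0-8h) embryos and at 16.5, 28.8 and 39.7 RPKM in TSA(0-8h)+VC(8-15h) embryos. The VC(8-15h) embryos had 24.1 and 17.9 RPKM, the VC(0-8h) embryo 48.7 RPKM and the TSA(0-8h)+VC(0-8h) embryos 62.9 and 59.6 RPKM. The 3 controls thus lay above every embryo of 3 treated groups, while the embryos that had VC at 0 to 8 h lay between 48.7 and 62.9 RPKM. A full separation below the controls was seen for 11.8% of the entries tested in TSA(0-8h) embryos, and for 5.71% and 11.3% of those tested in TSA(0-8h)+VC(8-15h) and VC(8-15h) embryos. These are shares of each comparison alone, with the same controls in all 3, and the share with every separation was not counted.

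Kdm3a has another entry, NM_001038695, whose RPKM steps give a length of only 151 bases, against 4855 for NM_173001. This short entry reached 3536 RPKM from 3665 reads in control embryo 2, and 299 to 676 RPKM in TSA(0-8h)+VC(8-15h) embryos 2 and 3, the VC(0-8h) embryo and TSA(0-8h)+VC(0-8h) embryo 2. It was at 0 in all 5 embryos of sequencing pool 1, and had at least 1 read in all 9 embryos of the other pools. TSA(0-8h) embryos 2 and 3 and control embryo 3 held only 1, 2 and 1 of its reads. Its levels ran from 0.85 to 3536 RPKM in pool 2 and from 0.49 to 299 RPKM in pool 3. They thus differed between pools and also within them, and the part of the pool in them was not tested. Within treatments they spread widely, from 0 to 3536 RPKM in the controls and from 0 to 367 RPKM in the TSA(0-8h)+VC(8-15h) embryos.

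Kdm3b, a close relative of Kdm3a, was near 0 in all controls. It was at 0.21, 0.14 and 0.01 RPKM in the controls, from 8, 7 and 1 reads. The TSA(0-8h)+VC(8-15h) embryos had 12.9, 39.3 and 7.80 RPKM, from 399, 2171 and 681 reads, and the VC(8-15h) embryos had 3.42 and 33.2 RPKM. TSA(0-8h) embryos had 15.4, 0.05 and 0.02 RPKM, the VC(0-8h) embryo 13.2 RPKM and the TSA(0-8h)+VC(0-8h) embryos 0.22 and 7.08 RPKM. Every TSA(0-8h)+VC(8-15h) embryo lay above every control, as was the case for 16.2% of the entries tested in that comparison. Both VC(8-15h) embryos also lay above every control, as was the case for 17.6% of the entries tested there. The 2 comparisons share their controls, and the share of entries with both separations was not counted. Of the TSA(0-8h) embryos, 1 had a high level and 2 lay within the range of the controls.

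Jmjd1c, a larger relative of Kdm3a and Kdm3b, was near 0 in most embryos and high in a few. NM_001242396 was at 58.3 RPKM in TSA(0-8h) embryo 2, 30.2 RPKM in VC(8-15h) embryo 1, and 9.54 and 8.71 RPKM in TSA(0-8h)+VC(8-15h) embryos 1 and 3. In the other 10 embryos it was between 0.02 and 0.47 RPKM. The entry NM_207221 was at 43.7 RPKM in VC(8-15h) embryo 1 and at 0.255 RPKM or less elsewhere. No treatment had Jmjd1c at 1 RPKM in all of its embryos.

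**Figure D2:**
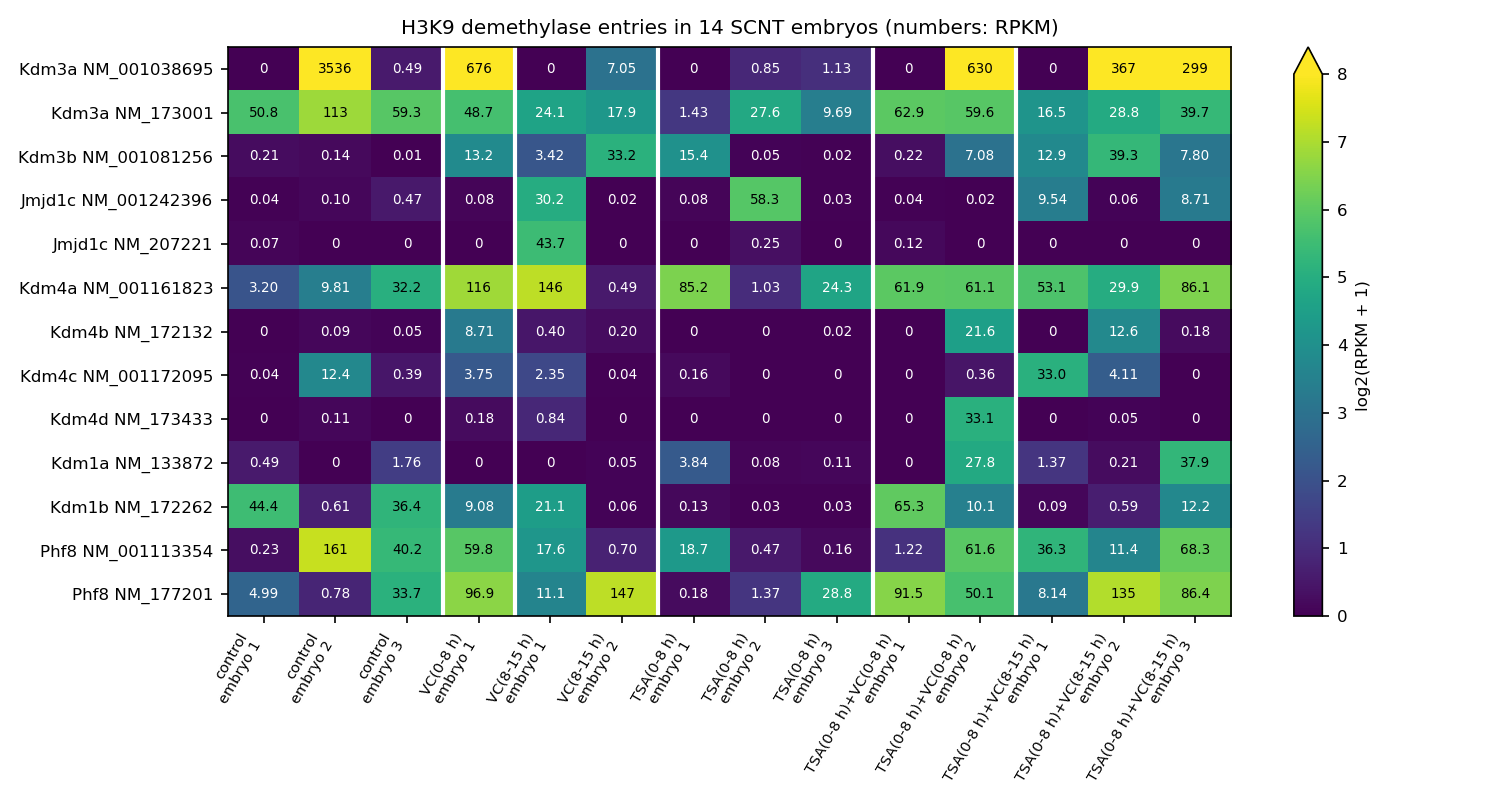
Each cell gives the RPKM of 1 H3K9 demethylase entry (row) in 1 embryo (column), with embryos ordered by treatment and white lines between treatments; the colour is log2(RPKM + 1), and yellow also holds values above 8 on that scale. Kdm3a NM_173001 is above 1 RPKM in every embryo but dark in TSA(0-8h) embryo 1 (1.43 RPKM), Kdm3b NM_001081256 is dark in the 3 controls, and Kdm4d NM_173433 is bright in 1 embryo.

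Kdm4a to Kdm4d are JmjC enzymes known to remove trimethylation of H3K9, and all but Kdm4d are also known to act on lysine 36 of histone H3. Kdm4a was the most widely present of them. Its entry NM_001161823 was at 3.20, 9.81 and 32.2 RPKM in controls, 85.2, 1.03 and 24.3 RPKM in TSA(0-8h) embryos and 53.1, 29.9 and 86.1 RPKM in TSA(0-8h)+VC(8-15h) embryos. The VC(8-15h) embryos had 146 and 0.49 RPKM, the VC(0-8h) embryo 116 RPKM and the TSA(0-8h)+VC(0-8h) embryos 61.9 and 61.1 RPKM. The 2 VC(8-15h) embryos thus span the whole range of the gene, and both its highest and its lowest value belong to that group. The entry NM_172382 held no read in any embryo.

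Kdm4b was at 21.6 RPKM in TSA(0-8h)+VC(0-8h) embryo 2, 12.6 RPKM in TSA(0-8h)+VC(8-15h) embryo 2 and 8.71 RPKM in the VC(0-8h) embryo. In the other 11 embryos it was at 0.40 RPKM or less. The 3 embryos with a clear level had all received VC, and all 3 were in sequencing pool 2. Kdm4c entry NM_001172095 was at 33.0 and 4.11 RPKM in TSA(0-8h)+VC(8-15h) embryos 1 and 2, at 12.4 RPKM in control embryo 2, at 3.75 RPKM in the VC(0-8h) embryo and at 2.35 RPKM in VC(8-15h) embryo 1. Its other 9 embryos were at 0.39 RPKM or less, and the entry NM_144787 held no read in any embryo. Kdm4d was at 33.1 RPKM from 1156 reads in TSA(0-8h)+VC(0-8h) embryo 2 and at 0.84 RPKM or less in the other 13. The Kdm4 genes other than Kdm4a were therefore seen in a minority of embryos, and no treatment with more than 1 embryo had any of them at 1 RPKM in all of its embryos.

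Phf8, a JmjC enzyme with a PHD finger that is known to bind H3K4 trimethylation and to remove dimethylation of H3K9, has 2 entries with reads. NM_177201 was at 4.99, 0.78 and 33.7 RPKM in controls, 0.18, 1.37 and 28.8 RPKM in TSA(0-8h) embryos and 8.14, 135 and 86.4 RPKM in TSA(0-8h)+VC(8-15h) embryos. Its levels were 11.1 and 147 RPKM in VC(8-15h) embryos, 96.9 RPKM in the VC(0-8h) embryo and 91.5 and 50.1 RPKM in TSA(0-8h)+VC(0-8h) embryos. The 6 highest levels of this entry all belong to embryos that received VC, and the share of all entries with such an order was not counted. With the reads of both entries over their summed length, the VC embryos ran from 14.1 to 79.6 RPKM. Control embryo 2 was then at 75.7 RPKM and the other embryos without VC at 0.95 to 36.7 RPKM. NM_001113354 was at 0.23, 161 and 40.2 RPKM in controls, 18.7, 0.47 and 0.16 RPKM in TSA(0-8h) embryos and 36.3, 11.4 and 68.3 RPKM in TSA(0-8h)+VC(8-15h) embryos. The VC(8-15h) embryos had 17.6 and 0.70 RPKM, the VC(0-8h) embryo 59.8 RPKM and the TSA(0-8h)+VC(0-8h) embryos 1.22 and 61.6 RPKM. The entries often parted within an embryo: control embryo 2 had 161 RPKM for NM_001113354 and 0.78 RPKM for NM_177201, and VC(8-15h) embryo 2 had 0.70 and 147 RPKM. How the authors divided reads between entries of 1 gene is not given in the sources used here, and reads could also be shared with the pseudogene Phf8-ps, so the split is uncertain.

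**Figure D3:**
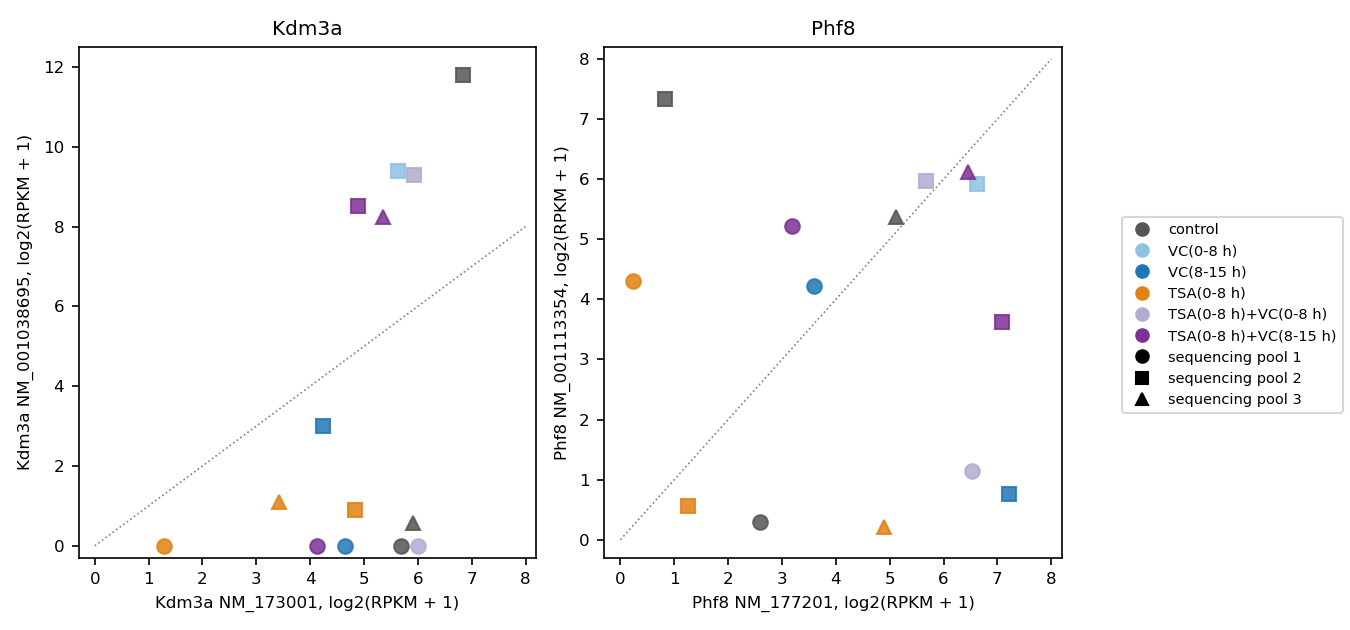
The left panel plots Kdm3a NM_001038695 (y axis) against NM_173001 (x axis) and the right panel Phf8 NM_001113354 against NM_177201, all in log2(RPKM + 1); each point is 1 of 14 embryos, coloured by treatment, with its symbol giving the sequencing pool and the dotted line marking equal levels. All 5 circles, which are pool 1, lie at 0 for the short Kdm3a entry, and 2 embryos of pool 2 lie at opposite corners for Phf8.

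Kdm1a and Kdm1b are the flavin-dependent members. Both are best known for removing methyl groups from lysine 4 of histone H3, and Kdm1b is needed in growing oocytes to set up maternal imprints. Kdm1a was at 37.9 RPKM in TSA(0-8h)+VC(8-15h) embryo 3 and 27.8 RPKM in TSA(0-8h)+VC(0-8h) embryo 2. It was at 3.84 RPKM in TSA(0-8h) embryo 1, 1.76 RPKM in control embryo 3 and 1.37 RPKM in TSA(0-8h)+VC(8-15h) embryo 1, and at 0.49 RPKM or less in the other 9. Kdm1b was at 44.4, 0.61 and 36.4 RPKM in controls and at 0.13, 0.03 and 0.03 RPKM in TSA(0-8h) embryos, from 2, 1 and 2 reads. The TSA(0-8h)+VC(8-15h) embryos had 0.09, 0.59 and 12.2 RPKM, the VC(8-15h) embryos 21.1 and 0.06 RPKM, the VC(0-8h) embryo 9.08 RPKM and the TSA(0-8h)+VC(0-8h) embryos 65.3 and 10.1 RPKM. All 3 TSA(0-8h) embryos thus lay below all 3 controls for Kdm1b, the lowest control being at 0.61 RPKM from 21 reads. Such a separation was seen for 11.8% of the entries tested in TSA(0-8h) against control, and Kdm1b was not among those tested. The 2 embryos given TSA with VC at 0 to 8 h did not lie below all controls, and this contrast was not tested.

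**Figure D4:**
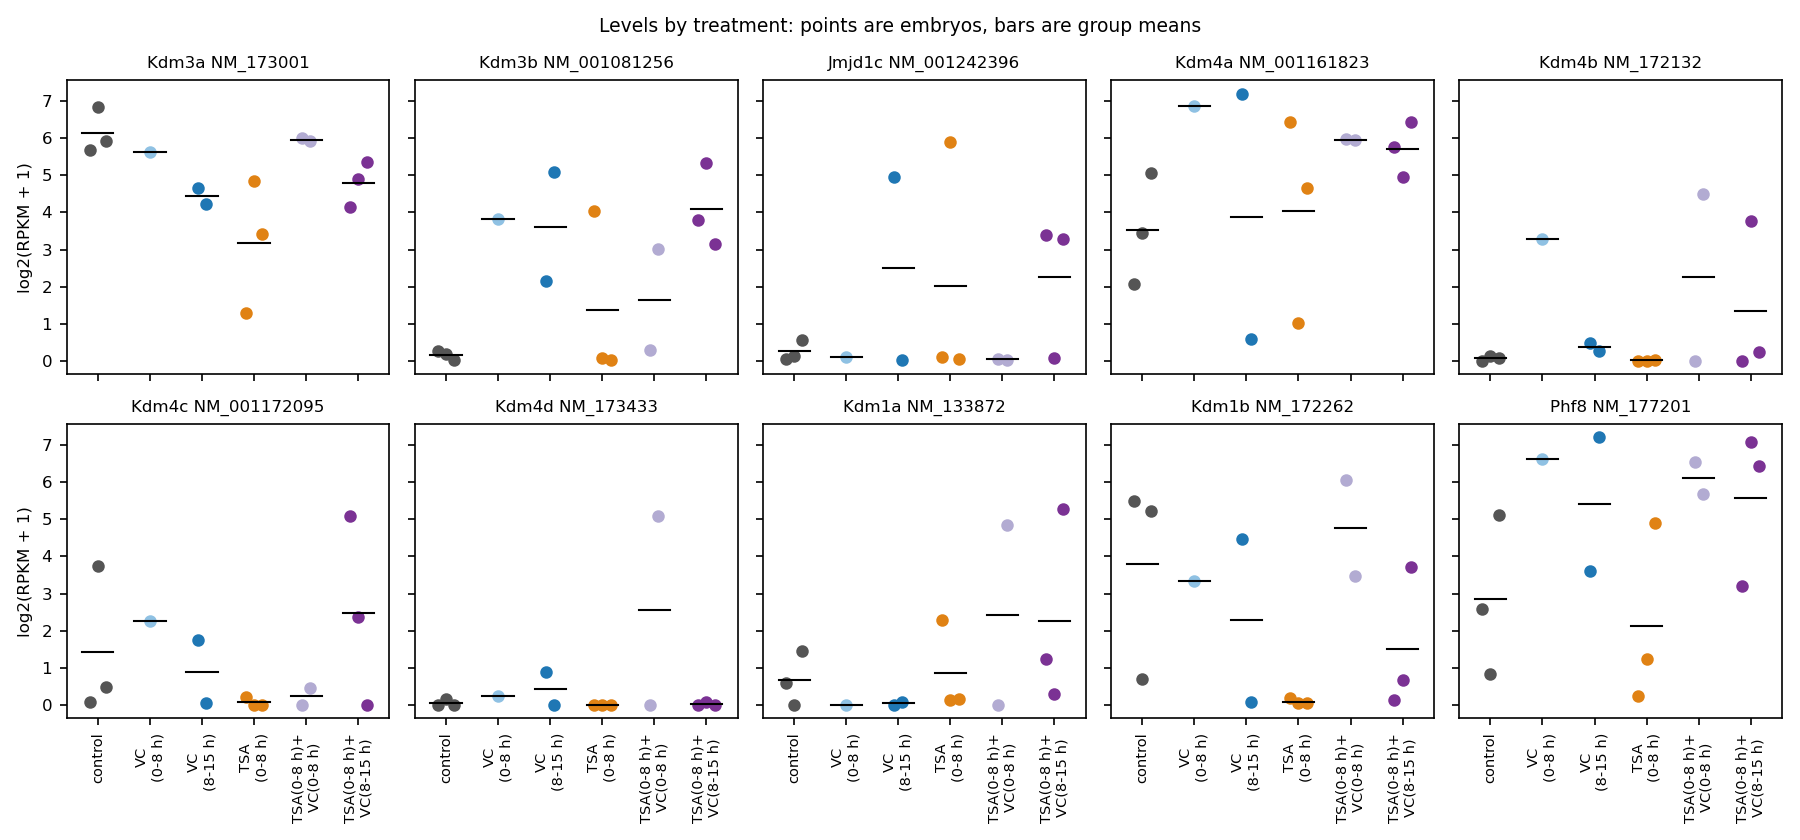
Each panel shows 1 gene, by the entry with the highest mean level; the x axis is the treatment, the y axis is log2(RPKM + 1), points are embryos (n = 3, 1, 2, 3, 2 and 3 from left to right) and the short black lines are group means. The 3 Kdm3b controls lie below 0.3 on this scale, whereas most other genes have high and low embryos within the same group.

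Fits with limma on log2(RPKM + 1) over the whole table, with p-values adjusted by Benjamini-Hochberg over all entries tested, asked whether treatment moved any member. In each of the 8 comparisons 0 member entries had an adjusted p-value under 0.05. The spread within treatments was large for members as for other entries: the median SD of log2(RPKM + 1) was 2.09 over 11 member entries and 2.11 over 8249 entries. The embryos of the TSA(0-8h)+VC(8-15h) group came from separate nuclear transfer experiments by the study's account, which does not give this for the other groups, so p-values measure only the spread between these embryos.

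The comparison of TSA(0-8h)+VC(8-15h) with control asked what the sequential treatment changed. Of the 15 member entries, 5 from 4 genes passed the filter, which asked for 1 RPKM or more in each embryo of at least 1 of the groups, and Kdm3b and both Phf8 entries passed it only through the treated embryos, where they are high. The adjusted test called 0.0293% of the 3416 entries, that is 1, and 0 of the members. Kdm3b was 3.93 ± 1.11 higher (log2 difference ± SE, limma adjusted p = 0.110), beside a median difference of 0.78 over all entries tested, which quantile normalization moved to -0.03. Kdm3b was thus 1 member entry with an unadjusted p under 0.05, against 18.4% of all entries tested. Whether it was called depended on the scale, with an adjusted limma p of 0.0310 with a pseudocount of 0.1, where 3.45% of all entries were called, and 0.0114 by limma-voom on the reads, where 5.62% were, but 0.285 after quantile normalization and 0.716 without a filter.
The other entries tested did not pass. Phf8 NM_177201 differed by 2.73 ± 1.75 (limma adjusted p = 0.434), Kdm4a by 2.20 ± 1.50 (0.473), Kdm3a NM_173001 by -1.35 ± 1.18 (0.588) and Phf8 NM_001113354 by 0.66 ± 1.77 (0.893). For Kdm3b all 3 treated embryos lay above all 3 controls, and for Kdm3a NM_173001 all 3 lay below. The exact two-sided permutation p was 0.1 for both, which is the smallest that 3 against 3 embryos allow. Between the embryos of the same sequencing pool, Kdm3b differed by 3.53, 5.14 and 3.12 and Kdm3a by -1.56, -1.93 and -0.57 (log2, 1 embryo against 1).

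TSA(0-8h) against control asked what TSA alone changed. Only Kdm3a NM_173001 and Kdm4a passed the filter, and 0 of them were called, beside 0.119% of 2529 entries. Kdm3a differed by -2.97 ± 1.86 (limma adjusted p = 0.502) and Kdm4a by 0.52 ± 2.09 (0.948). All 3 TSA(0-8h) embryos were below all 3 controls for Kdm3a, with an exact permutation p of 0.1, and within pools the difference was -4.41, -1.99 and -2.49. Kdm1b, at 0.61 RPKM in control embryo 2, did not pass the filter and has only its exact permutation p of 0.1. Without control embryo 2 it passed the filter, through the controls only, with a difference of -5.28 and a limma adjusted p of 0.0260, in a fit that called 8.85% of all entries.

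TSA(0-8h)+VC(8-15h) against TSA(0-8h) asked what VC added to TSA. Of the 5 member entries tested, Kdm3b and both Phf8 entries again passed the filter only through the embryos with VC. The differences were 3.45 ± 1.90 for Phf8 NM_177201, 3.30 ± 1.73 for Phf8 NM_001113354, 2.71 ± 1.49 for Kdm3b, 1.68 ± 1.69 for Kdm4a and 1.61 ± 1.74 for Kdm3a NM_173001, with limma adjusted p-values of 0.342 to 0.687. The median over all 3243 entries tested was 1.18, and 0.09 after quantile normalization. In this comparison limma called 0 entries in all, which is 0%, although 604 had an unadjusted p under 0.05 and limma-voom called 313, none of them a member. After quantile normalization Kdm3a was at -0.21 instead. Without TSA(0-8h)+VC(8-15h) embryo 1 the short Kdm3a entry was called, in a fit that called 6.33% of all entries, and without embryo 3 Kdm4c was, in a fit that called 8.32%. Both passed the filter only through the embryos with VC. The comparison shares its TSA(0-8h)+VC(8-15h) embryos with the first one and its TSA(0-8h) embryos with the second, and the first and second share the controls.

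VC(8-15h) against control, 2 embryos against the same 3 controls, gave a difference of 3.46 ± 1.02 for Kdm3b (limma adjusted p = 0.123). It was the only 1 of 4 member entries with an unadjusted p under 0.05, beside 14.2% of all 3171 entries. Limma called 0 entries, which is 0%, with 451 at an unadjusted p under 0.05, and limma-voom called 133, none of them a member. With a pseudocount of 0.1 Kdm3b passed (limma adjusted p = 0.0324), as did 2.24% of all entries. It also passed without VC(8-15h) embryo 1 (4.94, limma adjusted p = 0.00434) and without embryo 2 (1.98, limma adjusted p = 0.00184), but these fits, in which the lone embryo was taken to vary like the controls, called 11.7% and 21.1% of all entries. Phf8 NM_177201, which like Kdm3b passed the filter only through the VC embryos, differed by 2.56 ± 2.44, Kdm3a by -1.70 ± 1.73 and Kdm4a by 0.37 ± 2.50 (limma adjusted p = 0.668, 0.692 and 0.956). Kdm3b was higher in both embryos than in every control and Kdm3a NM_173001 lower, each with an exact permutation p of 0.1, the smallest possible. Within pools Kdm3b differed by 1.87 and 4.90 and Kdm3a by -1.05 and -2.59.

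**Figure D5:**
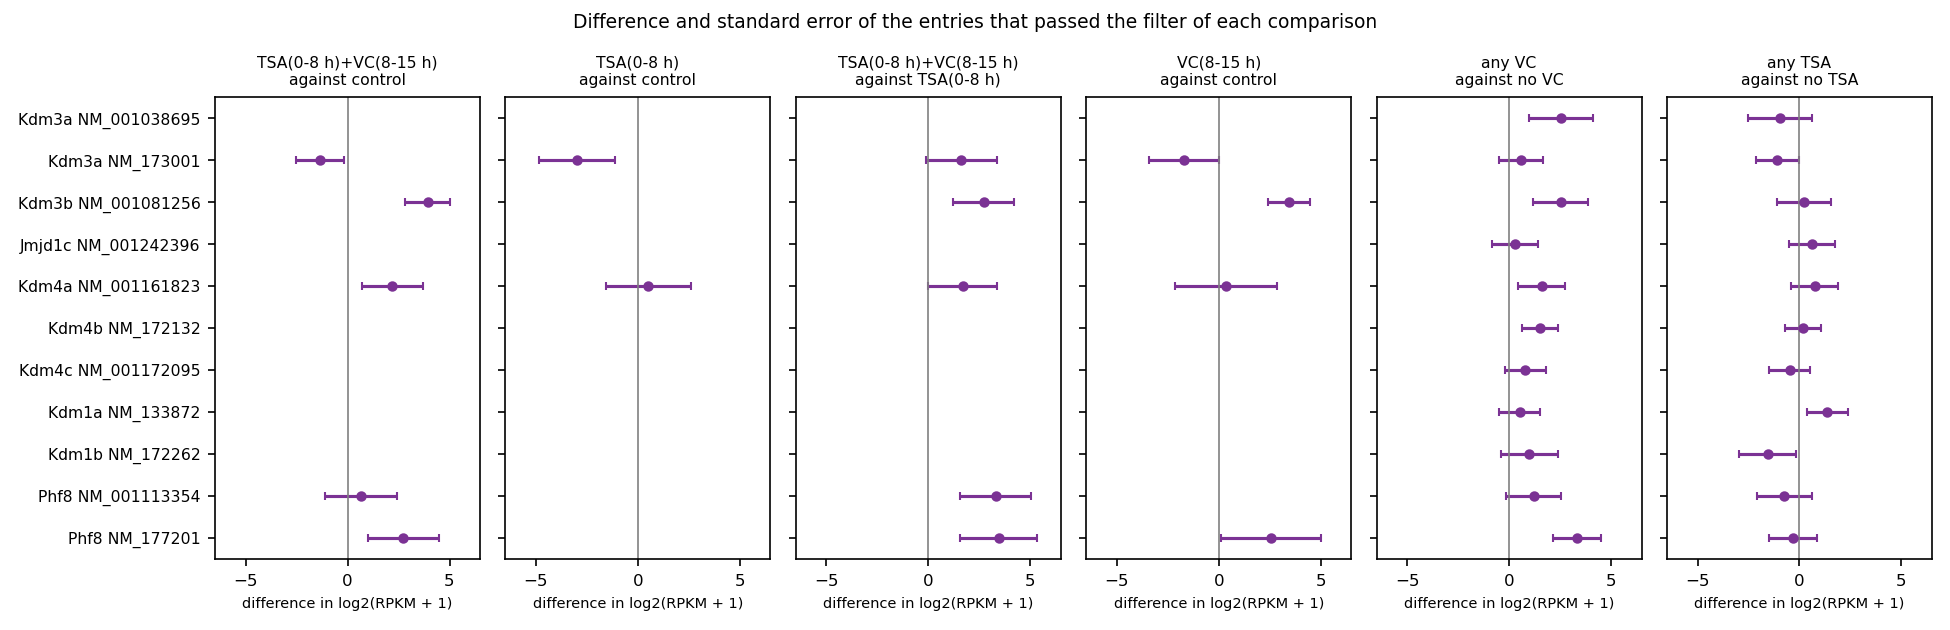
Points are differences in log2(RPKM + 1) and bars are standard errors from limma, for the H3K9 demethylase entries that passed the filter of each of 6 comparisons; positive values are higher in the first group named and the grey line is 0. Kdm3b lies right of 0 by 3.93 and 3.46 in the comparisons of TSA(0-8h)+VC(8-15h) and VC(8-15h) with control. All 11 entries lie right of 0 for VC, where the median of all entries tested was 0.52.

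Because most members hold an iron that VC keeps reduced, the 8 embryos given VC in either window were also set against the 6 without, with TSA as a term. RNA levels do not measure the activity of the enzymes, which is what the iron bears on. Phf8 NM_177201 ranged from 8.14 to 147 RPKM with VC (median 88.9) and from 0.18 to 33.7 RPKM without (median 3.18). The lowest 2 of the VC embryos lay below the highest 2 of the others, and the other 6 lay above them all. It was 3.35 ± 1.18 higher with VC (limma adjusted p = 0.489). It was the only 1 of 11 member entries with an unadjusted p under 0.05, beside 7.39% of 8249 entries. The adjusted test called 0.0242% of entries and 0 members.
A two-sided exact permutation test, with VC labels moved within embryos with and without TSA, gave p = 0.00982 for Phf8 NM_177201. Within pools the difference was 3.03, 5.61 and 1.44, with 3 against 2, 4 against 2 and 1 against 2 embryos. The other Phf8 entry differed by 1.21 ± 1.34 (limma adjusted p = 0.842), and the reads of both entries over their summed length by 2.10 (limma adjusted p = 0.613, exact permutation p = 0.025). Quantile normalization took the exact permutation p of Phf8 NM_177201 to 0.0545.
Kdm3b reached 1 RPKM in 7 of 8 embryos with VC, at 0.22 to 39.3 RPKM (median 10.4), and in 1 of 6 without, at 0.01 to 15.4 RPKM (median 0.10). It was 2.53 ± 1.34 higher (limma adjusted p = 0.657), and the exact permutation p was 0.0232. That p rose to 0.152 after quantile normalization, and to 0.0548, 0.0571 and 0.0536 without TSA(0-8h) embryo 2, TSA(0-8h) embryo 3 and VC(8-15h) embryo 2. Within pools the difference was -0.08, 4.18 and 3.11, so it was not seen in pool 1, where TSA(0-8h) embryo 1 was at 15.4 RPKM. Phf8 NM_177201 and Kdm3b were the 2 of 13 member entries with an unadjusted exact permutation p under 0.05, and both are among the 11 that passed the filter. The same exact permutation test gave a p under 0.05 for 7.67% of the 8249 entries that did.
The remaining entries differed by 0.29 to 2.54. Kdm4b was 1.51 ± 0.87 higher with VC (limma adjusted p = 0.662, exact permutation p = 0.0625). It passed the filter only through its 3 embryos at 8.71 RPKM or more, which had all received VC and were all in pool 2. Kdm1a and Kdm1b differed by 0.53 ± 1.01 and 0.99 ± 1.40 (limma adjusted p = 0.921 and 0.888). All 11 entries tested were higher with VC, with a median of 1.21, beside a median of 0.52 over all entries tested and -0.02 after quantile normalization. On that scale Kdm3a NM_173001, Jmjd1c and Kdm1a fell on the other side of 0, at -0.17, -0.25 and -0.10. The 11 entries are from 9 genes, and the share of all entries tested that were higher with VC was not counted. Of all entries with an unadjusted limma p under 0.05, 520 were higher with VC and 90 lower.

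For TSA, 8 embryos with it were set against 6 without, with VC as a term. The test called 0 of 11 member entries, beside 0.0242% of all entries, and no member had an unadjusted p under 0.05. Differences ran from -1.55 ± 1.40 for Kdm1b (limma adjusted p = 0.982) to 1.36 ± 1.01 for Kdm1a (0.958), with 5 entries higher and 6 lower. A test of any difference among the 6 treatments called 0 of 11 member entries, beside 0.0485% of all entries, with limma adjusted p-values of 0.974 for each. The interaction of TSA(0-8h) and VC(8-15h), which asks whether VC acted differently after TSA, called 0 of 11 member entries and 0% of 8249 entries by limma, with 366 entries but no member at an unadjusted p under 0.05; no other tool was run on it. The largest interaction among members was 7.54 ± 3.91 for the short Kdm3a entry (limma adjusted p = 0.903).

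The members were also compared with each other per length within embryos. On the scale of mean log2(RPKM + 1), with the highest entry standing for each gene, Kdm3a had 4.91 ± 1.38 (SD over 14 embryos), Kdm4a 4.74 ± 2.16 and Phf8 4.38 ± 2.43. Then came Kdm1b at 2.40 ± 2.34, Kdm3b at 2.23 ± 2.03, Jmjd1c at 1.34 ± 2.09, Kdm4c at 1.17 ± 1.63, Kdm1a at 1.17 ± 1.79, Kdm4b at 0.91 ± 1.62 and Kdm4d at 0.46 ± 1.35. In exact two-sided sign-flip permutation tests of the 9 neighbouring pairs, unadjusted, only Phf8 and Kdm1b had a p under 0.05 (p = 0.0212), with Phf8 higher in 11 of 14 embryos and a mean difference of 1.97. The order of the genes and the entry standing for each were picked from the same levels that were then tested. The order was sorted again in this way when 1 embryo was left out, so all of these p-values are descriptions only. The other 8 neighbours did not differ beyond their spread, with exact p-values of 0.292 to 0.988. With reads of all entries over summed length the step lay between Kdm4a and Kdm1b instead (exact permutation p = 0.00696).
Kdm3a, Kdm4a and Phf8 traded places between embryos. Kdm3a was above Phf8 in 8 embryos and below it in 6, and Kdm4a was above Phf8 in 6 and below it in 8. Each took the first rank in 1 pool: Kdm4a in pool 1, Kdm3a in pool 2 and Phf8 in pool 3. The step below Phf8 was not seen in pool 1, where Kdm1b had a mean of 3.27 and Phf8 of 3.23.

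Levels of different members were weakly related. Over the 14 embryos the 45 pairs of genes had a median Pearson's r of 0.15 in log2(RPKM + 1), from -0.38 for Kdm3a and Kdm3b to 0.65; these are descriptions over libraries that differ in depth and complexity. For the 5 genes at 1 RPKM in at least 7 embryos, the 3 entries of other genes with the highest r were listed. Kdm1b was most like Tasor (r = 0.97), then Fry and Cry2 (0.88 and 0.87), and Kdm4a was most like Ppp1r15b (0.90), Caskin2 and Zfp532. Phf8 was most like Srpr (0.90), Rimklb and Myo18a, Kdm3b most like Taf9 (0.87), Cdt1 and Tpx2, and Kdm3a most like Atp5a1 (0.82), Hdgf and Pum2. Each is the top of a search through 4616 entries over 14 libraries.

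Other genes of the H3K9 methylation pathway were read from lists. Of 4 further demethylase-family genes, Kdm7a, which acts on H3K9 and H3K27 dimethylation, was at 23.6 to 161 RPKM in all 14 embryos with a mean of 83.1 RPKM, above the mean of the entry standing for any member, and Riox2 had a mean of 55.0 RPKM. Of the 4, 1 to 3 were tested in a comparison and none of these was called; Hr was tested in none. Among 11 partners of Kdm1a and Kdm1b, the highest were Glyr1, the nucleosome-binding partner of Kdm1b, at a mean of 110 RPKM, and the deacetylase Hdac1, at 83.5 RPKM. None was called, and Zmym2, which passed the filter only through the TSA(0-8h) embryos, came closest in TSA(0-8h) against control (4.60 ± 1.41, limma adjusted p = 0.133).
Of 11 H3K9 methyltransferases and cofactors, 10 were matched, and the highest were Trim28, a corepressor that recruits Setdb1, at a mean of 106 RPKM, and Setdb1 itself, at 52.8 RPKM in its highest entry, which held no read in 11 embryos. None was called. Between embryos with and without VC 12 of their 13 entries were higher, with a median of 1.02 beside 0.52 over all entries tested. The share of all entries that were higher was not counted. Of 6 readers of H3K9 methylation, Cbx3 (HP1 gamma) was at 18.0 RPKM or more in every embryo with a mean of 118 RPKM, and Cbx5 (HP1 alpha) averaged 77.3 RPKM but was at 0 in 12 embryos for that entry. No reader was called, and Uhrf1, which brings the DNA methylation machinery to H3K9-methylated chromatin, came closest, with NM_010931, which passed the filter only through the controls, at -4.94 ± 2.01 in TSA(0-8h) against control (limma adjusted p = 0.222).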

How the data were processed

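RNA was extracted from single embryos, part of it was amplified with a single-cell kit and PCR, and the libraries were read single-end. The authors removed low-quality bases and adaptors, used TopHat2 with mm9 and UCSC exon annotation, and deposited RPKM values per RefSeq entry, scaled to total counts and transcript length. Symbols were found by accession in a RefSeq table for 25246 of 25650 entries. For 99.99% of the 14532 entries checked, RPKM values were whole multiples of 1 read (tolerance 1e-08), which gave reads, entry lengths and the depth of each embryo, with 99.75% to 99.96% of reads recovered. The spread between libraries was not split into counting error, error from amplifying part of the RNA, and differences between embryos. Counting error weighs most on entries with few reads.

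Groups came from the labels, and pools were inferred from the sequencing identifier in the column headers of the tables, which the labels do not explain. Two-group fits kept entries that reached 1 RPKM throughout 1 of the groups, and the other fits those that did so in 3 or more of 14 embryos. They were tested with limma 3.58.1 (R 4.3.3) on log2(RPKM + 1) with a trend in the variance and Benjamini-Hochberg adjustment at 0.05. This scale understates changes of low entries. A test on RPKM was the main one because the deposited values are RPKM, and the recovered reads were tested only by limma-voom. Scripts were tested on simulated data. Two-sided exact permutation tests and plots were made in Python 3.11.15 (scipy 1.17.1, numpy 2.4.6, matplotlib 3.10.9, pandas 2.3.3). Every entry of all 10 members was described, and the entry with the highest mean log2(RPKM + 1) stood for its gene. From the lists, genes that passed a test and the 2 with the highest mean RPKM were named, and Zmym2 and Uhrf1, which did not pass, were added after their values were seen. The members and lists were chosen with earlier results of these data known. Alternatives were another pseudocount (0.1), no filter, a filter blind to groups, quantile normalization, entries summed per gene, limma-voom on recovered reads, a block for the replicate number or pool, all 14 embryos in 1 model, and each embryo left out in turn. Coding sequences and positions are from GENCODE on mm9. The sequence of Kdm3b was not analysed here.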

Additional observations from a re-analysis of the deposited data

How the results depend on the processing

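Of the log2 differences of member entries tested in the main fits, 269 of 285 kept their direction and their side of the threshold under the alternatives. When 1 embryo was left out 369 of 394 did. No member was called in a main fit, so only a new call could change the side of the threshold. Calls of entries that the main fit of a comparison did not test are not in these counts. The number of member entries called became 1 with a pseudocount of 0.1 in TSA(0-8h)+VC(8-15h) against control (Kdm3b 6.30, limma adjusted p = 0.0310) and in VC(8-15h) against control (Kdm3b 5.74, limma adjusted p = 0.0324), and 1 by limma-voom in the former (Kdm3b 7.29, limma adjusted p = 0.0114). Leaving out 1 embryo gave 0 to 0 member calls in TSA(0-8h)+VC(8-15h) against control, 0 to 1 in TSA(0-8h) against control (Kdm1b, without control embryo 2), 0 to 1 in TSA(0-8h)+VC(8-15h) against TSA(0-8h) (Kdm3a NM_001038695 without TSA(0-8h)+VC(8-15h) embryo 1, Kdm4c without its embryo 3), 0 to 3 in VC(8-15h) against control (Kdm3b without embryo 1, Kdm3b and both Jmjd1c entries without embryo 2, the lone embryo being taken to vary like the controls) and 0 to 0 in the fits of 14 embryos, while 1 neighbouring pair of levels always differed, namely Phf8 and Kdm1b in 10 of 14 such tests, Phf8 and Kdm3b in 3 (without control embryo 1, control embryo 3 or TSA(0-8h)+VC(0-8h) embryo 1) and Kdm4a and Kdm1b in 1 (without TSA(0-8h) embryo 1). These fits called 8.85% of all entries without control embryo 2, 6.33% and 8.32% without TSA(0-8h)+VC(8-15h) embryos 1 and 3, and 11.7% and 21.1% without VC(8-15h) embryos 1 and 2, and both Jmjd1c entries passed the filter only through the single VC embryo where they are high.
The neighbouring pair given for each of these tests had an unadjusted exact p under 0.05 after the genes were sorted again by the same levels, so it is a description only. Entries called in the whole table moved more than the member calls did. In TSA(0-8h)+VC(8-15h) against control 1 became 118 with a pseudocount of 0.1, 192 by limma-voom, 0 without a filter, 2 after quantile normalization, 0 with entries summed, 0 with reads over summed length, which was chosen after seeing the data, 2 with the filter blind to groups and 11 in 1 model of 14 embryos (0 to 100 with 1 embryo left out). In TSA(0-8h) against control 3 became 104, 123 by limma-voom, 0 without a filter, 0 with entries summed and 14 in 1 model (0 to 316). In TSA(0-8h)+VC(8-15h) against TSA(0-8h) 0 became 195, 313 by limma-voom, 4 after quantile normalization, 1 over summed length, 3 with the blind filter and 2 in 1 model (0 to 327). In VC(8-15h) against control 0 became 71, 133 by limma-voom, 2 over summed length, 3 with the blind filter and 28 in 1 model (0 to 1370). For VC 2 became 4, 6 without a filter, 0 after quantile normalization and 1 by limma-voom (2 to 7), for TSA 2 became 0 without a filter, 1 with entries summed, 1 over summed length and 1 by limma-voom (2 to 4), and for the 6 treatments 4 became 779 without a filter, 1 after quantile normalization, 0 with entries summed and 9 by limma-voom (0 to 5). The causes were not tested.
Embryos with the same replicate number deviated together only weakly (r = 0.015 to 0.067), and the numbers were not taken to pair them. In the 4 comparisons of 2 groups, embryos with the same number also share a pool. The block for the number is thus a block for the pool there, and the main fits hold no term for it. With the replicate number as a block 20, 4, 196 and 2 entries were called in the 4 comparisons of 2 groups, against 1, 3, 0 and 0 in the main fits. With the pool as a block 3 were called for VC, 2 for TSA and 0 for the 6 treatments. No member was called in any of these fits.
Quantile normalization turned Phf8 NM_001113354 to -0.042 in TSA(0-8h)+VC(8-15h) against control, Kdm3a NM_173001 to -0.21 in TSA(0-8h)+VC(8-15h) against TSA(0-8h), Jmjd1c to -0.25, Kdm1a to -0.10 and Kdm3a NM_173001 to -0.17 for VC, and Phf8 NM_177201 to 0.051 for TSA. Limma-voom turned Kdm4a to -0.17 in VC(8-15h) against control, Kdm1a to -0.25 and Kdm3a NM_173001 to -0.0032 for VC, and Kdm4b to -0.88 and Phf8 NM_177201 to 0.21 for TSA. A pseudocount of 0.1 turned Kdm4a to -0.13 in VC(8-15h) against control and Kdm4b to -0.30 for TSA. With 1 embryo left out, Phf8 NM_001113354 ranged from -1.36 to 2.16 in TSA(0-8h)+VC(8-15h) against control, Kdm4a from -0.68 to 2.03 in TSA(0-8h) against control and from -2.94 to 3.68 in VC(8-15h) against control, and Jmjd1c from -0.47 to 1.37 and Kdm3a NM_173001 from -0.12 to 0.89 for VC. For TSA the ranges that crossed 0 were -2.26 to 0.80 for Kdm3a NM_001038695, -0.39 to 0.69 for Kdm3b, -1.67 to 0.031 for Phf8 NM_001113354, -0.33 to 1.36 for Kdm4a, -0.98 to 0.064 for Kdm4c, -0.27 to 1.54 for Jmjd1c, -0.12 to 0.39 for Kdm4b and -0.92 to 0.15 for Phf8 NM_177201. The exact permutation test for VC lost its threshold after quantile normalization for Kdm3b (1.58, p = 0.152) and Phf8 NM_177201 (2.36, p = 0.0545).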
